A study of Mus musculus with 35 samples.

Results

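Inflammasome and pyroptosis genes were described in the mRNA of CD45+ve microglia from the mouse brain. They are 10 genes chosen by name for their role in the pathway, namely Nlrp3, Nlrp1b, Nlrc4, Aim2, Pycard, Casp1, Casp4, Gsdmd, Il18 and Il18bp, out of 55401 genes in the count table. All 10 were found and all 10 passed the filter on low counts. The mice were wild-type C57BL/6 animals of both sexes at postnatal day 6 (P6), P15 and 8 weeks. Dissociated cells of the whole brain were captured by immunopanning for CD45, a surface protein of all leukocytes, and each mouse gave 1 library. The 34 mice used were 4 females and 6 males at P6, 6 females and 6 males at P15, and 6 females and 6 males at 8 weeks. A further P6 female, number 6, was left out. It lay below the other 10 mice of P6 for 8 of the genes, with 25.7 CPM of Pycard and 31.2 CPM of Gsdmd, and within their range for Il18 (18.5 CPM) and Il18bp (3.83 CPM). No gate beyond CD45 separated microglia from other leukocytes, and the labels name no treatment other than age and no allele other than wild type.

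An inflammasome is a protein complex that assembles in the cytosol when a sensor meets a sign of infection or damage. Sensors such as NLRP3, NLRP1B, NLRC4 and AIM2 recruit the adaptor ASC, the product of Pycard, or bind caspase-1 directly, and caspase-1 then cleaves the precursors of interleukin-1 beta and interleukin-18 as well as gasdermin D. The freed part of gasdermin D forms pores in the plasma membrane, which releases the cytokines and can kill the cell by pyroptosis. Much of this machinery is controlled after translation, so a transcript level describes the supply of a part and not the activity of the complex. Microglia are the resident macrophages of the brain and are a main source of these transcripts there.

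Each mouse had between 23316107 and 38965078 fragments counted on genes (median 32052382), so that 3 counts corresponded to between 0.0770 and 0.129 CPM, the count scaled to a common library size. All 10 genes lay above this level in every library. The CD45+ve libraries carried the 5 microglial markers used (Tmem119, P2ry12, Sall1, Siglech and Gpr34), whose summed level was between 1707 and 3419 CPM at P6, 4789 and 9565 CPM at P15, and 6572 and 10190 CPM at 8 weeks. RNA of other cells differed between the ages as well. The summed level of 9 neural progenitor markers was between 660.9 and 2037 CPM at P6 and between 89.0 and 205.6 CPM at 8 weeks, and that of 6 neuronal markers between 276.4 and 925.7 CPM at P6 and between 48.4 and 211.7 CPM at 8 weeks. For oligodendrocytes it was between 227.4 and 567.8 CPM at P6 and between 969.7 and 4081 CPM at P15. The 6 astrocyte markers summed to between 371.8 and 975.1 CPM at P6, 556 and 3488 CPM at P15 and 1244 and 3708 CPM at 8 weeks. The 9 monocyte and macrophage markers summed to between 724.1 and 1577 CPM at P6 and between 365.6 and 719.0 CPM at 8 weeks. The 7 lymphocyte markers summed to between 19.3 and 43.8 CPM at P6 and between 26.2 and 80.5 CPM at 8 weeks. The 6 of 8 neutrophil markers that passed the filter summed to between 15.9 and 72.3 CPM at P6 and between 31.2 and 207.4 CPM at 8 weeks. The defining neutrophil genes Ly6g and Elane were below the filter and are not in this sum. Fewer microglia in a library and less RNA of a gene per microglial cell cannot be told apart in such samples, and the part of the other cells in the results was not tested. Within the monocyte and macrophage list, Lyve1, Pf4, Mrc1 and F13a1 fell from P6 to 8 weeks (log2FC -2.57 to -0.60), and the monocyte genes Ccr2 (3.05, FDR = 4.54e-13) and Ly6c2 (2.7, FDR = 7.63e-11) rose. A second scaling, to 8 genes that leukocytes share (Tyrobp, Fcer1g, Laptm5, Aif1, Cd53, Spi1, Coro1a and Itgb2), is therefore given beside the main one.

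Between P6 and 8 weeks, 7 of the 10 genes rose and none fell at an adjusted p (FDR) below 0.05, where the FDR is the Benjamini-Hochberg value of edgeR's quasi-likelihood test over 17612 genes. Nlrp1b changed most, with an 8.48-fold rise, and was the only gene past the stricter test against a 2-fold threshold. Aim2, Il18, Casp4, Gsdmd and Casp1 rose between 1.70 and 2.17-fold, and Pycard rose 1.24-fold. Nlrp3, Nlrc4 and the inhibitor Il18bp did not pass the test, with folds of 1.07, 0.971 and 0.903. Among all genes tested, 37.8% rose and 36.6% fell at this FDR, and 11.5% rose and 12.4% fell past 2-fold. The median log2 fold change (log2FC) of the 10 genes was 0.83, against 0.04 for all genes.

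The rise was not even over time. From P6 to P15, 4 of the 10 genes rose (Nlrp1b, Aim2, Gsdmd and Il18) and 2 fell (Nlrp3 and Casp4), beside 30.4% and 31.4% of all genes, and the median log2FC was 0.31 against -0.01. Past the 2-fold threshold 1 gene rose, Nlrp1b, and none fell, where 4.87% of all genes rose and 4.85% fell. From P15 to 8 weeks, 6 rose (Nlrp3, Nlrp1b, Aim2, Casp1, Casp4 and Il18) and 1 fell (Il18bp), beside 24% and 23.9% of all genes, and the median log2FC was 0.44 against 0.02. Past 2-fold 1 gene rose, Casp4, and none fell, where 1.2% of all genes rose and 3.07% fell. The comparisons share mice, P15 entering both steps.

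**Figure D1:**
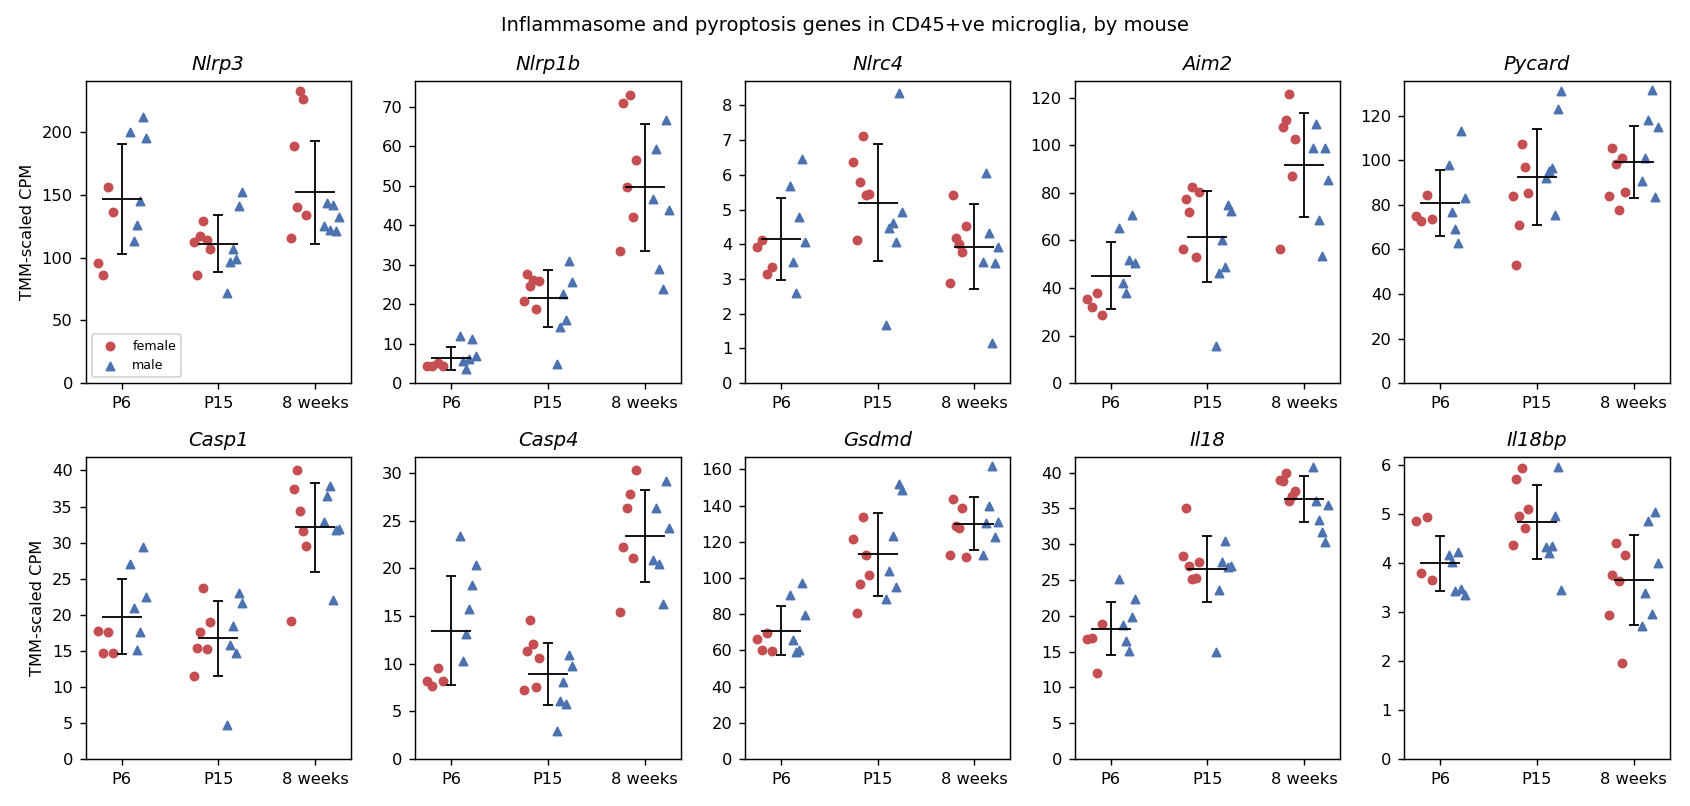
TMM-scaled CPM (vertical axis, linear and from 0) of the 10 genes in each mouse at P6, P15 and 8 weeks, with circles for females and triangles for males. Bars give the mean and SD of each age (10, 12 and 12 mice). Nlrp1b, Gsdmd and Il18 show no overlap between P6 and 8 weeks, Casp4 dips at P15, and P15 male 1 is the lowest of its age in 7 of the 10 panels.

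Among the sensors, Nlrp1b, whose protein is activated when pathogen proteases cleave it, rose at each step. Its level was between 3.53 and 12.1 CPM at P6 (median 5.36). At P15 it was between 4.83 and 30.9 CPM (median 23.5), and at 8 weeks between 23.95 and 73.0 CPM (median 48.1). All 12 mice at 8 weeks lay above all 10 at P6, 11 of 12 at P15 did, and the single exception was P15 male 1. The log2FC was 1.87 ± 0.24 (SE) from P6 to P15 (FDR = 6.46e-08), 1.21 ± 0.21 from P15 to 8 weeks (FDR = 3.22e-05) and 3.08 ± 0.26 over the whole interval (FDR = 2.58e-12, edgeR). Against the 2-fold threshold the FDR was 0.00122 for the first step, 0.668 for the second and 1.28e-09 for both together, and with limma-voom the first step did not pass it. The gene lies on the minus strand at chr11:71153102-71230733 of GRCm38, next to its relative Nlrp1a, with which 0.048% of its 100-base stretches are shared. Per length, its mean level was 1.53 RPKM (CPM per 1000 bases of its main coding transcript) at P6 and 11.99 RPKM at 8 weeks, which moved it from the 9th to the 8th place among the 10 genes.

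The promoters of 4 genes that rose from P6 to 8 weeks, 2 sensors and both caspases, are shown, so that the letters behind their motif matches can be read. Each is the 250 bases before a RefSeq transcription start, 5′ to 3′ on the gene's strand (GRCm38.p6). For Nlrp1b it is chr11:71230734-71230983 on the minus strand, and capitals mark the core GAGGAA, which PU.1, the lineage factor of macrophages and microglia, can bind.
Nlrp1b: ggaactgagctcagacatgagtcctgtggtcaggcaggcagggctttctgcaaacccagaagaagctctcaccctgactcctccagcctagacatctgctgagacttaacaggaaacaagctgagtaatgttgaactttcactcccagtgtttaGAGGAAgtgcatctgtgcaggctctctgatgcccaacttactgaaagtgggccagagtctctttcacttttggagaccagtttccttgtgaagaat
For Aim2 it is chr1:173420354-173420603 on the plus strand, before a start inside the annotated span of the gene, with the same core in capitals.
Aim2: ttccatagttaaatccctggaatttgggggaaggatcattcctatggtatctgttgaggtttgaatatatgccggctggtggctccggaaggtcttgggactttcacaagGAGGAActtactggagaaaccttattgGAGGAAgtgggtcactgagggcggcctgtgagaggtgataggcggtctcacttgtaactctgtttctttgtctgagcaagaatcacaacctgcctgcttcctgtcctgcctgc
For Casp1 it is chr9:5298267-5298516 on the plus strand, and the core stands on the other strand.
Casp1: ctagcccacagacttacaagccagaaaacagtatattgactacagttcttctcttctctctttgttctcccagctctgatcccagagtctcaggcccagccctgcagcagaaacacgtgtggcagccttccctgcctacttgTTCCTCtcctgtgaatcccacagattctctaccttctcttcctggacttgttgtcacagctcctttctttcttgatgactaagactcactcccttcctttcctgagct
For Casp4 it is chr9:5308599-5308848 on the plus strand, and capitals mark a match to the NF-kappa-B pattern gggannnncc.
Casp4: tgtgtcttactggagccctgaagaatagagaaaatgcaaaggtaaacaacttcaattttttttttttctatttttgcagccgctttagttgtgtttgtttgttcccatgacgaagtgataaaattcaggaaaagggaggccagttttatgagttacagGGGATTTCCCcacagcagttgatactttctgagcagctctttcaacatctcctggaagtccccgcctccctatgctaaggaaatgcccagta

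The cores begin 96 bases before the start in Nlrp1b, 140 and 113 bases in Aim2 and 108 bases in Casp1, and the match in Casp4 begins 92 bases before the start. RefSeq promoters were at hand for 9 of the 10 genes. Of these, 5 held the GAGGAA core on either strand before at least 1 of their starts (Nlrp3, Nlrp1b, Aim2, Pycard and Casp1) and 2 held the NF-kappa-B pattern (Nlrp3 and Casp4). Nlrp3 and Nlrp1b have a second start each, before which the core was not found. Over all 32851 promoters of the same length, 23.3% held the core and 17.6% the NF-kappa-B pattern. These shares count promoters, whereas the 9 members were counted as genes with a match before at least 1 start. The counts and the shares are therefore not of the same unit. The interferon response pattern gaaanngaaa, present in 2.98% of promoters, and the composite pattern ggaanngaaa, present in 2.301%, matched none of the 9. The patterns do not overlap in the windows printed. Il18, Il18bp and Nlrc4 held none of the 4 patterns.

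Aim2, the sensor of double-stranded DNA in the cytosol, rose at both steps on the average of the sexes. The first step measured 1.07 in females (FDR = 0.00191) and 0.00 in males (FDR = 0.991), and the second 0.47 in females (FDR = 0.145) and 0.69 in males (FDR = 0.0239), while the differences between the sexes did not pass (FDR = 0.152 and 0.902, edgeR). Its level was between 28.8 and 70.7 CPM at P6 (median 40.0), between 15.8 and 82.6 CPM at P15 (median 66.1) and between 53.5 and 121.7 CPM at 8 weeks (median 98.9). The ages overlapped, with 9 of 12 mice at 8 weeks above all mice at P6 and 9 of 12 above all at P15. The log2FC was 0.53 ± 0.18 from P6 to P15 (FDR = 0.0107), 0.58 ± 0.17 from P15 to 8 weeks (FDR = 0.00508) and 1.12 ± 0.18 overall (FDR = 2.15e-06). The first of these calls was lost with age and sex as additive terms (FDR = 0.0562), and scaled to the pan-leukocyte genes neither step passed (0.14, FDR = 0.540, and 0.42, FDR = 0.0581). It lies at chr1:173350879-173466040 on the plus strand.

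Nlrp3, which responds to potassium loss and many forms of cell damage, fell at P15 and returned on the average of the sexes. The fall was -0.57 in males (FDR = 0.0112) and -0.10 in females (FDR = 0.722), and the return 0.23 in males (FDR = 0.325) and 0.64 in females (FDR = 0.0114), while the differences between the sexes did not pass (FDR = 0.330 and 0.870, edgeR). It had the highest level per length of the 4 sensors at each age. Its level was between 86.5 and 212.5 CPM at P6 (median 140.6), 71.9 and 152.4 CPM at P15 (median 110.0) and 115.7 and 232.8 CPM at 8 weeks (median 137.4). The ranges overlapped at every step. The log2FC was -0.33 ± 0.14 from P6 to P15 (FDR = 0.0369), 0.44 ± 0.13 from P15 to 8 weeks (FDR = 0.00697) and 0.10 ± 0.14 overall (FDR = 0.504). The fall at P15 was lost when any of 10 single mice was left out, with an FDR of up to 0.0933, and when P6 female 6 was added (FDR = 0.0748). The return held under the main scaling. Scaled to the pan-leukocyte genes, Nlrp3 was called lower at 8 weeks than at P6 (log2FC -0.47). Per length, Nlrp3 had 36.5 ± 10.97 RPKM at P6, 27.7 ± 5.57 at P15 and 37.8 ± 10.1 in the adult mice (SD, n = 10, 12 and 12). The gene spans chr11:59541568-59566956 on the plus strand.

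Nlrc4, which assembles after NAIP proteins bind flagellin or bacterial secretion proteins, was the least abundant of the 10 genes per length at each age, at 0.879, 1.10 and 0.831 RPKM. Its level was between 2.58 and 6.46 CPM at P6, 1.69 and 8.34 CPM at P15 and 1.16 and 6.06 CPM at 8 weeks. No step passed the test, with a log2FC of 0.35 ± 0.21 (FDR = 0.148), -0.40 ± 0.20 (FDR = 0.0995) and -0.04 ± 0.21 (FDR = 0.864). Without P15 male 1, the lowest P15 mouse for this gene, the first log2FC was 0.45 (FDR = 0.0428) and the second -0.51 (FDR = 0.0222). The gene lies at chr17:74425438-74459142 on the minus strand.

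Pycard, which links sensors to caspase-1, moved least among the genes that rose. It was between 63.1 and 113.0 CPM at P6 (median 75.8), 53.1 and 131.2 CPM at P15 (median 93.5) and 77.8 and 131.6 CPM at 8 weeks (median 99.6). The ranges overlapped, with 3 of 12 mice at 8 weeks above all at P6 and 6 of 10 mice at P6 below all at 8 weeks. The log2FC was 0.20 ± 0.11 (FDR = 0.122), 0.10 ± 0.11 (FDR = 0.430) and 0.31 ± 0.11 (FDR = 0.0160). The overall rise was lost when any of 4 P6 mice was left out and turned to a fall of log2FC -0.29 (FDR = 1.7e-05) when libraries were scaled to the pan-leukocyte genes. Pycard lies at chr7:127989708-127993867 on the minus strand, and its annotated transcript runs 1665 bases past the RefSeq end, so its level per length (21.3 RPKM at P6, 26.1 at 8 weeks) depends on the annotation.

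Both inflammatory caspases rose from P15 to 8 weeks. Casp1, the protease that all canonical inflammasomes activate, was between 14.7 and 29.4 CPM at P6 (median 17.7), 4.69 and 23.7 CPM at P15 (median 16.7) and 19.1 and 40.1 CPM at 8 weeks (median 32.4). P6 and P15 overlapped widely, whereas 10 of 12 mice at 8 weeks lay above all mice of either younger age. Its log2FC was -0.18 ± 0.18 (FDR = 0.383), 0.94 ± 0.17 (FDR = 3.16e-05) and 0.76 ± 0.18 (FDR = 0.000300). Scaled to the pan-leukocyte genes, the last of these did not pass (0.20, FDR = 0.289), and the first was called as a fall.

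Casp4, the mouse caspase-11 that binds bacterial lipopolysaccharide and cleaves gasdermin D without a sensor, fell from P6 to P15 on the average of the sexes before it rose, the value being -1.22 in males and 0.34 in females (FDR = 6.58e-05 and 0.288). It was between 7.70 and 23.5 CPM at P6 (median 11.7), 2.90 and 14.6 CPM at P15 (median 8.93) and 15.4 and 30.4 CPM at 8 weeks (median 23.3). The mice at P15 and 8 weeks did not overlap, and Casp4 was the only member for which these ages were apart. The log2FC was -0.44 ± 0.17 from P6 to P15 (FDR = 0.0269), 1.42 ± 0.17 from P15 to 8 weeks (FDR = 3.86e-08, and 0.0421 against 2-fold) and 0.97 ± 0.18 overall (FDR = 1.02e-05). The early fall was lost without P6 male 1, the highest P6 mouse (FDR = 0.0553), and the call against 2-fold was lost under several alternatives, limma-voom and DESeq2 among them. Casp1 (chr9:5298517-5307265) and Casp4 (chr9:5308828-5336783) are neighbours on the plus strand, 1562 bases apart, and shared no 100-base stretch with each other or with another gene.

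Gsdmd, the pore-forming gasdermin that both caspases cleave, rose early. It was between 59.1 and 97.2 CPM at P6 (median 66.2), 80.5 and 152.1 CPM at P15 (median 108.2) and 111.5 and 161.8 CPM at 8 weeks (median 129.6). All 12 mice at 8 weeks and 8 of 12 at P15 lay above all mice at P6. The log2FC was 0.70 ± 0.11 in the first step (FDR = 9.97e-07), 0.20 ± 0.10 in the second (FDR = 0.0847) and 0.90 ± 0.11 overall (FDR = 4.82e-09). Per length of the main coding transcript Gsdmd was the most abundant of the 10 at each age, with 39.6 ± 7.67, 63.1 ± 12.9 and 72.6 ± 8.18 RPKM (SD). At P6 it lay within the spread of Nlrp3, which came first there when the length of all exons was used (36.2 against 29.8 RPKM). The gene lies at chr15:75862327-75867408 on the plus strand.

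Il18, a cytokine that caspase-1 matures and that drives interferon-gamma in lymphocytes, rose at both steps under the main scaling, while scaled to the pan-leukocyte genes neither step passed (0.22, FDR = 0.188, and 0.23, FDR = 0.185). It was between 11.96 and 25.1 CPM at P6 (median 17.8), 14.99 and 35 CPM at P15 (median 26.9) and 30.3 and 40.8 CPM at 8 weeks (median 36.4). All mice at 8 weeks lay above all at P6, and 9 of 12 above all at P15. Its log2FC was 0.58 ± 0.10 (FDR = 1.09e-05), 0.45 ± 0.09 (FDR = 0.000234) and 1.03 ± 0.10 (FDR = 1.42e-10), and it lies at chr9:50554827-50581840 on the plus strand.

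Il18bp, the secreted protein that binds and neutralises interleukin-18, did not follow its ligand. It was between 3.35 and 4.95 CPM at P6 (median 3.92), 3.46 and 5.98 CPM at P15 (median 4.84) and 1.97 and 5.05 CPM at 8 weeks (median 3.70). The ranges overlapped, with 5 of 12 mice at 8 weeks below all at P15. The log2FC was 0.26 ± 0.13 (FDR = 0.0882), -0.41 ± 0.12 (FDR = 0.00822) and -0.15 ± 0.13 (FDR = 0.316). The gene lies at chr7:102014885-102018690 on the minus strand and overlaps 80 bases of exons of Numa1 on the other strand, which the stranded counting keeps apart.

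**Figure D2:**
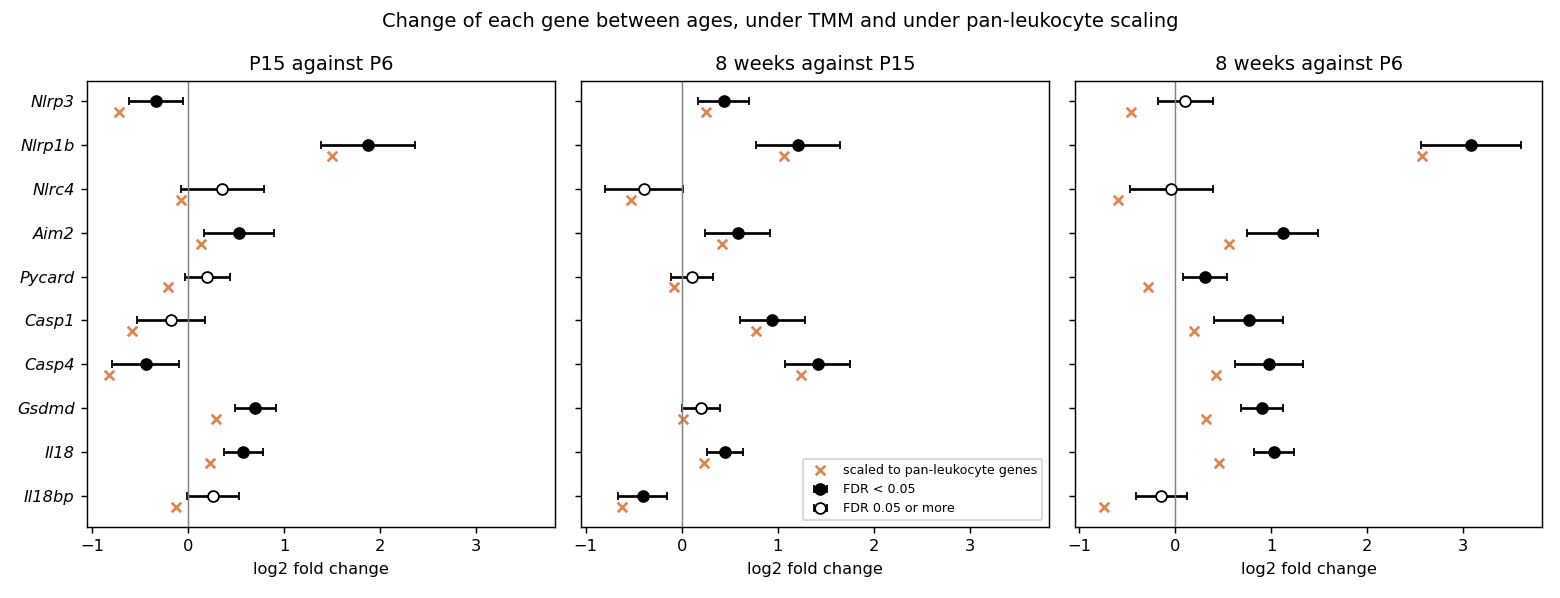
log2FC (horizontal axis) of each gene between ages from the edgeR fit with TMM scaling, with 95% confidence intervals, filled where the FDR is below 0.05 and open where it is not. Crosses give the log2FC when libraries are scaled to 8 pan-leukocyte genes, and each cross lies to the left of its point. Nlrp1b is far to the right from P6 to 8 weeks under both scalings.

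The scaling between libraries set part of these counts. Scaled to the 8 pan-leukocyte genes, the median log2FC of all genes tested shifted to -0.40 from P6 to P15, -0.20 from P15 to 8 weeks and -0.56 from P6 to 8 weeks, and the median of the 10 genes moved to -0.10, 0.24 and 0.26. From P6 to 8 weeks 5 genes were then higher and 4 lower, beside 16.5% and 56.5% of all genes. The 5 were Nlrp1b (log2FC 2.57), Aim2 (0.56), Il18 (0.45), Casp4 (0.42) and Gsdmd (0.31). The 4 were Il18bp (-0.74), Nlrc4 (-0.60), Nlrp3 (-0.47) and Pycard (-0.29), while Casp1 (0.20, FDR = 0.289) passed in neither direction. From P6 to P15 2 were higher (Nlrp1b and Gsdmd) and 4 lower (Nlrp3, Pycard, Casp1 and Casp4), beside 13.5% and 47.4% of all genes. From P15 to 8 weeks 4 were higher (Nlrp3, Nlrp1b, Casp1 and Casp4) and 2 lower (Nlrc4 and Il18bp), beside 9.03% and 34.9%.

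Ratios of 2 transcripts within a library do not depend on the scaling between libraries. They were taken from RPKM and compared by permutation tests over mice (two-sided, 100000 permutations, adjusted over 12 comparisons of 4 ratios). Il18 exceeded Il18bp by a mean log2 ratio of 3.06 ± 0.44 at P6, 3.34 ± 0.31 at P15 and 4.24 ± 0.45 in the adult mice (SD, permutation tests), or 8.35, 10.1 and 18.9 to 1. These ratios depend on the lengths used, and with the length of all exons the mean levels were 17.6 and 1.32 RPKM at P6 and 35.2 and 1.21 RPKM at 8 weeks, which gives larger ratios and leaves the differences between ages as they are. The difference was 0.28 from P6 to P15 (adjusted permutation p = 0.12), 0.91 from P15 to 8 weeks (adjusted permutation p = 0.00015) and 1.18 overall (adjusted permutation p = 0.00012). The ligand thus gained on its inhibitor in the second step, although single mice of these ages overlapped.

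Gsdmd against Casp1 separated P15 from P6. The log2 ratio was between 1.39 and 1.77 at P6 and between 2.13 and 3.98 at P15, with no overlap, and rose by 0.97 on average (adjusted permutation p = 0.00012). At 8 weeks it was between 1.42 and 2.62, lower than at P15 by a log2 difference of -0.79 (adjusted permutation p = 0.00015) and 0.18 above P6 (adjusted permutation p = 0.17). The highest P15 value belonged to P15 male 1, and without this mouse and 8-week male 4 the first difference was 0.84 (adjusted permutation p = 6e-05) and the second -0.74 (adjusted permutation p = 8e-05). Gsdmd rose in the first step and Casp1 in the second. Gsdmd had the highest and Casp1 the lowest transcript GC content of the 10 genes (54.4% and 41.1%). From P6 to P15 the median log2FC of protein-coding genes was -0.114 in the third of lowest GC content and 0.042 in the highest. From P15 to 8 weeks these medians were 0.184 and -0.146. The part of GC content in this ratio was not tested.

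Casp1 against Pycard fell and rose in turn. The mean log2 ratio was -0.71 at P6, -1.19 at P15 and -0.30 in the adult mice, with differences of -0.47 (adjusted permutation p = 0.0184), 0.89 (adjusted permutation p = 0.000168) and 0.41 (adjusted permutation p = 0.0125). P15 male 1 had the lowest value, -2.95, and without this mouse and 8-week male 4 the differences were -0.31 (adjusted permutation p = 0.0232), 0.81 (adjusted permutation p = 6e-05) and 0.50 (adjusted permutation p = 0.00068). Casp4 against Casp1 rose by 0.46 from P15 to 8 weeks (adjusted permutation p = 0.0035), and the differences of -0.30 from P6 to P15 and 0.16 overall did not pass (adjusted permutation p = 0.103 and 0.257).

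**Figure D3:**
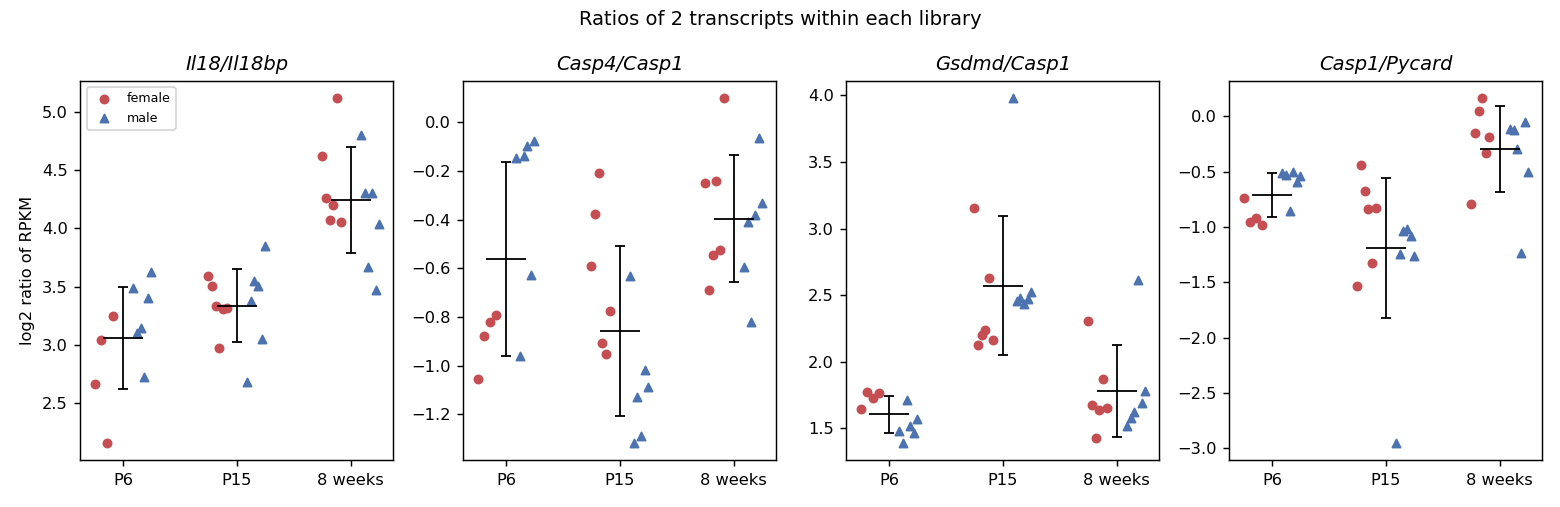
log2 ratio of RPKM (vertical axis, ranges differ between panels) of 4 pairs of transcripts within each library at P6, P15 and 8 weeks, with circles for females, triangles for males and bars for the mean and SD (10, 12 and 12 mice). Il18 against Il18bp is higher at 8 weeks, and Gsdmd against Casp1 separates P15 from P6.

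Single libraries stood apart. P15 male 1 lay below the median of its age for all 10 genes, by a median of -1.21 on the log2 scale, with -2.27 for Nlrp1b, -2.06 for Aim2 and -1.81 for Casp1 but -0.29 for Gsdmd and -0.02 for Pycard. Its summed oligodendrocyte markers (4081 CPM), neuronal markers (693.0 CPM) and neural progenitor markers (844.7 CPM) were the highest of the P15 mice and its summed microglial markers (4789 CPM) the lowest. At 8 weeks, male 4 lay -1.72 from the median of its age for Nlrc4, -1.01 for Nlrp1b and -0.89 for Aim2, and had the highest summed neutrophil (207.4 CPM) and lymphocyte markers (80.5 CPM). Male 6 of this age had nearly the same neutrophil sum (206.9 CPM) and lay by a median of -0.02 from the median of its age. Also at 8 weeks, female 1 lay below the median of its age for 9 of the 10 genes, by a median of -0.39, and had the lowest summed microglial (6572 CPM) and the highest summed astrocyte markers (3708 CPM) of its age. Leaving it out changed no call of the 10 genes. P15 male 1 and 8-week male 4 were poor in transcripts of low GC content. The third of protein-coding genes with the lowest GC content lay -0.76 from the age median in P15 male 1 and -0.46 in 8-week male 4, and the third with the highest lay 0.47 and 0.34 from it. Transcript GC content was 41.1% for Casp1, 42.0% for Casp4 and 42.8% for Aim2, 45.6% for Pycard, 48.7% for Nlrp1b and 54.4% for Gsdmd, and lay between 45.1% and 51.0% for the others. With a GC correction in the fit, chosen after the data were seen, the log2FC from P6 to 8 weeks was 3.08 for Nlrp1b, 0.94 for Aim2, 0.76 for Casp4 and 0.50 for Casp1. Under it 6 genes rose and none fell, beside 37.4% and 38.6% of all genes, the call of Pycard being lost (0.25, FDR = 0.0887). Without P15 male 1 and 8-week male 4, 7 genes again rose from P6 to 8 weeks, where 38.8% of all genes rose and 38.1% fell. From P6 to P15 5 then rose and 2 fell, beside 31.5% and 34.9%. From P15 to 8 weeks 6 rose and 2 fell, beside 26.3% and 23.6%.

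**Figure D4:**
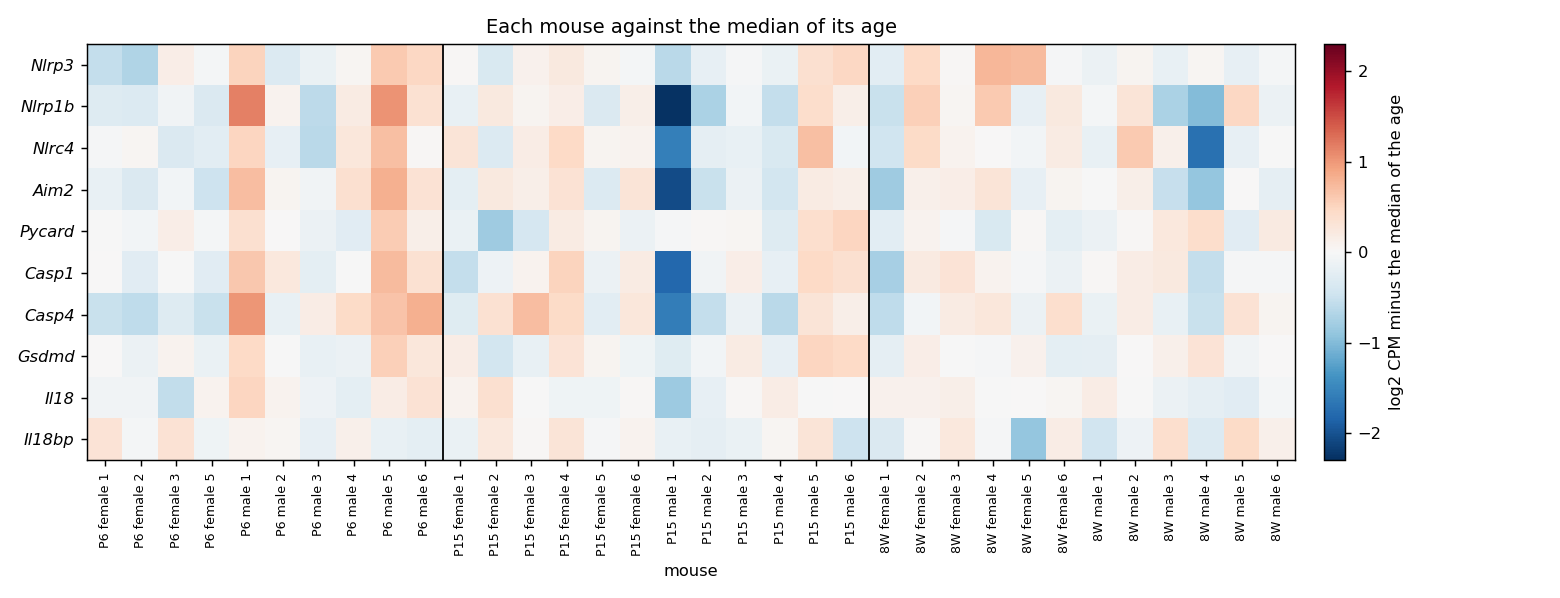
log2 CPM of each gene (rows) in each of the 34 mice (columns) minus the median of the mouse's age, on a colour scale from -2.3 to 2.3, with blue for lower, red for higher and lines between ages. P15 male 1 is the darkest column, low in Nlrp1b, Aim2, Casp1, Casp4 and Nlrc4 and near the median in Pycard, and P6 males 1 and 5 are high.

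Females and males were compared at each age. None of the 10 genes was called between sexes at any age, where the share of all genes called was 0.0511% for P6, 0.0681% for P15 and 0.114% for the adult mice. The largest difference was that of Casp4 at P6. The 4 females had 7.70, 8.15, 8.18 and 9.51 CPM and the 6 males 10.3, 13.1, 15.7, 18.3, 20.4 and 23.5 CPM, so that every male lay above every female. Its log2FC of male minus female was 1.01 ± 0.26 (edgeR FDR = 0.440), and the difference at P15 had the opposite sign, at -0.55 ± 0.23 (FDR = 0.255). The log2FC at P6 was above 0 for 9 of the 10 genes and below it for Il18bp (-0.19), none of them past the test. Summed microglial markers at P6 were between 1707 and 2048 CPM in the females and between 1921 and 3419 CPM in the males, and summed neural progenitor markers between 1573 and 1837 CPM in the females and between 660.9 and 2037 CPM in the males, and their part in these differences was not tested.

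The changes with age were then taken in each sex. From P6 to P15 Casp4 changed by a log2FC of 0.34 ± 0.26 in females (FDR = 0.288) and -1.22 ± 0.23 in males (FDR = 6.58e-05). The difference of these changes was -1.56 ± 0.35 and did not pass over all genes (edgeR FDR = 0.152). For Aim2 the changes were 1.07 ± 0.27 in females and 0.00 ± 0.24 in males, with a difference of -1.06 ± 0.36 (FDR = 0.152, edgeR). From P6 to 8 weeks Nlrp3 changed by 0.54 ± 0.21 in females (FDR = 0.0240) and -0.34 ± 0.19 in males (FDR = 0.114), with a difference of -0.88 ± 0.28 (FDR = 0.858), and Casp4 by 1.51 ± 0.27 in females (FDR = 1.55e-05) and 0.44 ± 0.23 in males (FDR = 0.0933), with a difference of -1.07 ± 0.35 (FDR = 0.858). No gene at all was called for such a difference at FDR 0.05 in any of the 3 comparisons of ages.

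The genes of most alike pattern were the 2 protein-coding genes nearest to each member in log2 CPM over the 34 mice, after centring, by the root mean square (RMS) difference among 14787 genes. Gsdmd had the closest neighbours, Fes (RMS 0.0837) and Stat6 (0.0869), followed by Pycard with Ctsa (0.0994) and Tyrobp (0.103), the latter being 1 of the 8 pan-leukocyte scaling genes. Aim2 was nearest to Mbnl1 (0.116) and Rapgef6 (0.139). Casp1 was nearest to Ctsc (0.206), which encodes cathepsin C, and Krcc1 (0.213), and Casp4 to Plek (0.274) and Igsf6 (0.323). Nlrp3 was nearest to Zc3hav1 (0.215) and Etv3 (0.238), Il18 to Lmbrd1 (0.184) and Fnbp1 (0.189), and Nlrp1b to Slfn8 (0.324) and Gm3252 (0.351). Nlrc4 was nearest to Rest (0.331) and Cd163 (0.342), and Il18bp to Adamts10 (0.284) and Ulk1 (0.285), for which a flat line lay about as near (0.328). The mice share their age and library, so these distances are descriptions.

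Of 48 other genes of the pathway, in 5 lists by role, 44 passed the filter. From P6 to 8 weeks 30 of them rose and 6 fell, from P6 to P15 17 rose and 12 fell, and from P15 to 8 weeks 25 rose and 4 fell, to be read beside the shares of all genes above. In 4 of the genes, Nlrp12, Mefv, Ninj2 and Il18r1, every P6 mouse lay under 0.5 CPM, so that they passed the filter only through older mice and are bound to count as higher than at P6 if called. Past 2-fold from P6 to 8 weeks there were 14 and 3. Scaled to the pan-leukocyte genes, 20 rose and 12 fell from P6 to 8 weeks, beside 16.5% and 56.5% of all genes. From P6 to P15 10 rose and 19 fell under it, beside 13.5% and 47.4%. From P15 to 8 weeks 21 rose and 8 fell, beside 9.03% and 34.9%.

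Of 9 other sensors tested, 8 rose from P6 to 8 weeks, 5 of them past 2-fold, and none fell, beside 37.8%, 11.5% and 36.6% of all genes, with a median log2FC of 1.28. The exception was Ifi204 (0.38, FDR = 0.0868), named after its values were seen. Nlrp12 and Mefv were genes of low level. Nlrp12, a regulator of NF-kappa-B signalling, was between 0 and 0.258 CPM at P6 and between 0.0364 and 1.96 CPM at 8 weeks, so that its P6 libraries lay near the level of 3 counts. Mefv, which encodes the inflammasome sensor pyrin, was between 0.0507 and 0.468 CPM at P6 and between 0.219 and 2.63 CPM at 8 weeks. Both are among the 8 and the 5, having passed the filter only through the 8-week mice, and their folds are therefore not given. Neutrophils express both genes. From P15 to 8 weeks, of the 6 neutrophil markers tested, S100a8, S100a9 and Retnlg rose by a log2FC of 0.69 to 1.52, Mmp8 measured 0.75 (FDR = 0.0571), and Camp (-1.53, FDR = 0.00540) and Ngp (-1.58, FDR = 0.00130) fell. Their part in the levels of Nlrp12 and Mefv was not tested.

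Of the 10 priming and licensing genes, 7 rose and 1 fell from P6 to 8 weeks, beside 37.8% and 36.6% of all genes. Txnip, a thioredoxin-binding protein that can bind NLRP3, was between 351.5 and 633.3 CPM at P6 and between 1346 and 2663 CPM at P15, with no overlap, and stayed at between 1359 and 2280 CPM at 8 weeks. Its log2FC was 2.02 ± 0.12 in the first step (FDR = 3.54e-15) and -0.11 ± 0.11 in the second (FDR = 0.404). P2rx7, the ATP-gated channel upstream of NLRP3, also rose in the first step (1.08 ± 0.12, FDR = 2.43e-09) and measured -0.09 ± 0.11 in the second (FDR = 0.501). Panx1, a channel that releases ATP, fell at both steps, from between 24.7 and 48.8 CPM at P6 to between 11.3 and 27.7 CPM at P15 and between 7.35 and 12.98 CPM at 8 weeks (log2FC overall -2.02 ± 0.14, FDR = 4.08e-14). Nek7, the kinase that bridges NLRP3 subunits, gave 0.02 ± 0.14, 0.25 ± 0.13 and 0.27 ± 0.14 at the 3 comparisons and passed none, with an FDR of 0.0842 overall.

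Of 8 effectors of cell death tested, 4 rose and 3 fell from P6 to 8 weeks, beside 37.8% and 36.6% of all genes. The 4 include Ninj2, for which every P6 mouse lay under 0.5 CPM, as stated above. Ripk3, the kinase of necroptosis, fell from between 16.7 and 28.9 CPM at P6 to between 7.70 and 16.7 CPM at P15 and between 6.52 and 12.3 CPM at 8 weeks (log2FC overall -1.27 ± 0.13, FDR = 4.98e-10). Casp12, an inflammatory caspase beside Casp1 and Casp4, was low, at between 0.111 and 0.770 CPM at P6 and between 1.15 and 3.97 CPM at 8 weeks (log2FC 2.19 ± 0.36, FDR = 2.30e-06). Casp8, which can cleave gasdermin D, rose from P6 to P15 (0.64 ± 0.16, FDR = 0.000939) and from P6 to 8 weeks (0.76 ± 0.16, FDR = 9.32e-05). Neither rise held under all alternatives, where the log2FC went down to 0.23 and 0.20 and the FDR up to 0.169 and 0.220. Gsdme, a gasdermin that caspase-3 cleaves, followed Casp4 in shape, with a log2FC of -0.46 ± 0.14 to P15 (FDR = 0.00606) and 1.16 ± 0.13 from there to 8 weeks (FDR = 3.28e-08). The fall of Gsdme to P15 did not hold under all alternatives (FDR of up to 0.0566). Ninj1, which ruptures the membrane at the end of pyroptosis, measured 0.10 ± 0.14 overall (FDR = 0.526).

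Of 9 cytokines and receptors, 1 rose and 5 fell from P6 to P15, beside 30.4% and 31.4% of all genes, and 8 rose and none fell from P15 to 8 weeks, beside 24% and 23.9%. The 8 include Il18r1, which reached the filter mainly through the 8-week mice. Il1b, the main product of caspase-1, was between 15.01 and 65.4 CPM at P6 (median 26.2), 6.52 and 22.4 CPM at P15 (median 10.3) and 36.3 and 93.8 CPM at 8 weeks (median 57.2). P15 and 8 weeks did not overlap. Its log2FC was -1.24 ± 0.23 (FDR = 2.77e-05), 2.23 ± 0.23 (FDR = 2.54e-09) and 0.99 ± 0.24 (FDR = 0.000357). The last of these did not hold under all alternatives, where it went down to 0.37 and its FDR up to 0.107. Il1a measured -0.68 ± 0.19 (FDR = 0.00337), 1.04 ± 0.19 (FDR = 3.56e-05) and 0.37 ± 0.20 (FDR = 0.0901).

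An antagonist and a decoy receptor restrain interleukin-1. Il1rn, the interleukin-1 receptor antagonist, named here after its values were seen, fell from a median of 6.79 CPM at P6 to 1.04 CPM at P15 and rose again to 2.80 CPM at 8 weeks (log2FC 1.20 ± 0.22 from P15, FDR = 4.74e-05, and overall -1.48 ± 0.22, FDR = 4.52e-07). Il1r2, the decoy receptor for interleukin-1, was between 0.773 and 2.37 CPM at P6 and between 3.33 and 13.1 CPM at 8 weeks (2.24 ± 0.29, FDR = 4.03e-08). Il18r1, a receptor chain for interleukin-18, had a median of 0.174 CPM at P6 and 1.02 CPM at 8 weeks. Lymphocytes and neutrophils carry these receptors as well. From P6 to 8 weeks 6 of 7 lymphocyte markers rose and Cd79b fell (-0.30, FDR = 0.0455), and 4 of 6 neutrophil markers rose while Camp and Ngp measured -0.85 each (FDR = 0.0983 and 0.0566). Their part was not tested. The mean log2 CPM of 9 immediate early genes, which respond to cell isolation, went from 9.07 at P6 through 9.54 at P15 to 10.2 in the adult mice. From P6 to P15 4 of them rose, most of all Hspa1a (3.41), and Ier2 (-0.60) and Nfkbiz (-0.78) fell. From P15 to 8 weeks 6 rose, among them Hspa1a (1.71) and Nfkbiz (0.96), and none fell, and over the whole interval 6 rose, again led by Hspa1a (5.12), and Ier2 fell (-0.44). Their part in the cytokine levels was not tested. Of the 8 genes of restraint and repair, 6 rose and 1 fell from P6 to 8 weeks, beside 37.8% and 36.6% of all genes, and Cflar, which restrains caspase-8, rose most (1.5 ± 0.16, FDR = 4.63e-10), from between 56.4 and 116.5 CPM to between 124.5 and 270.0 CPM.

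**Figure D5:**
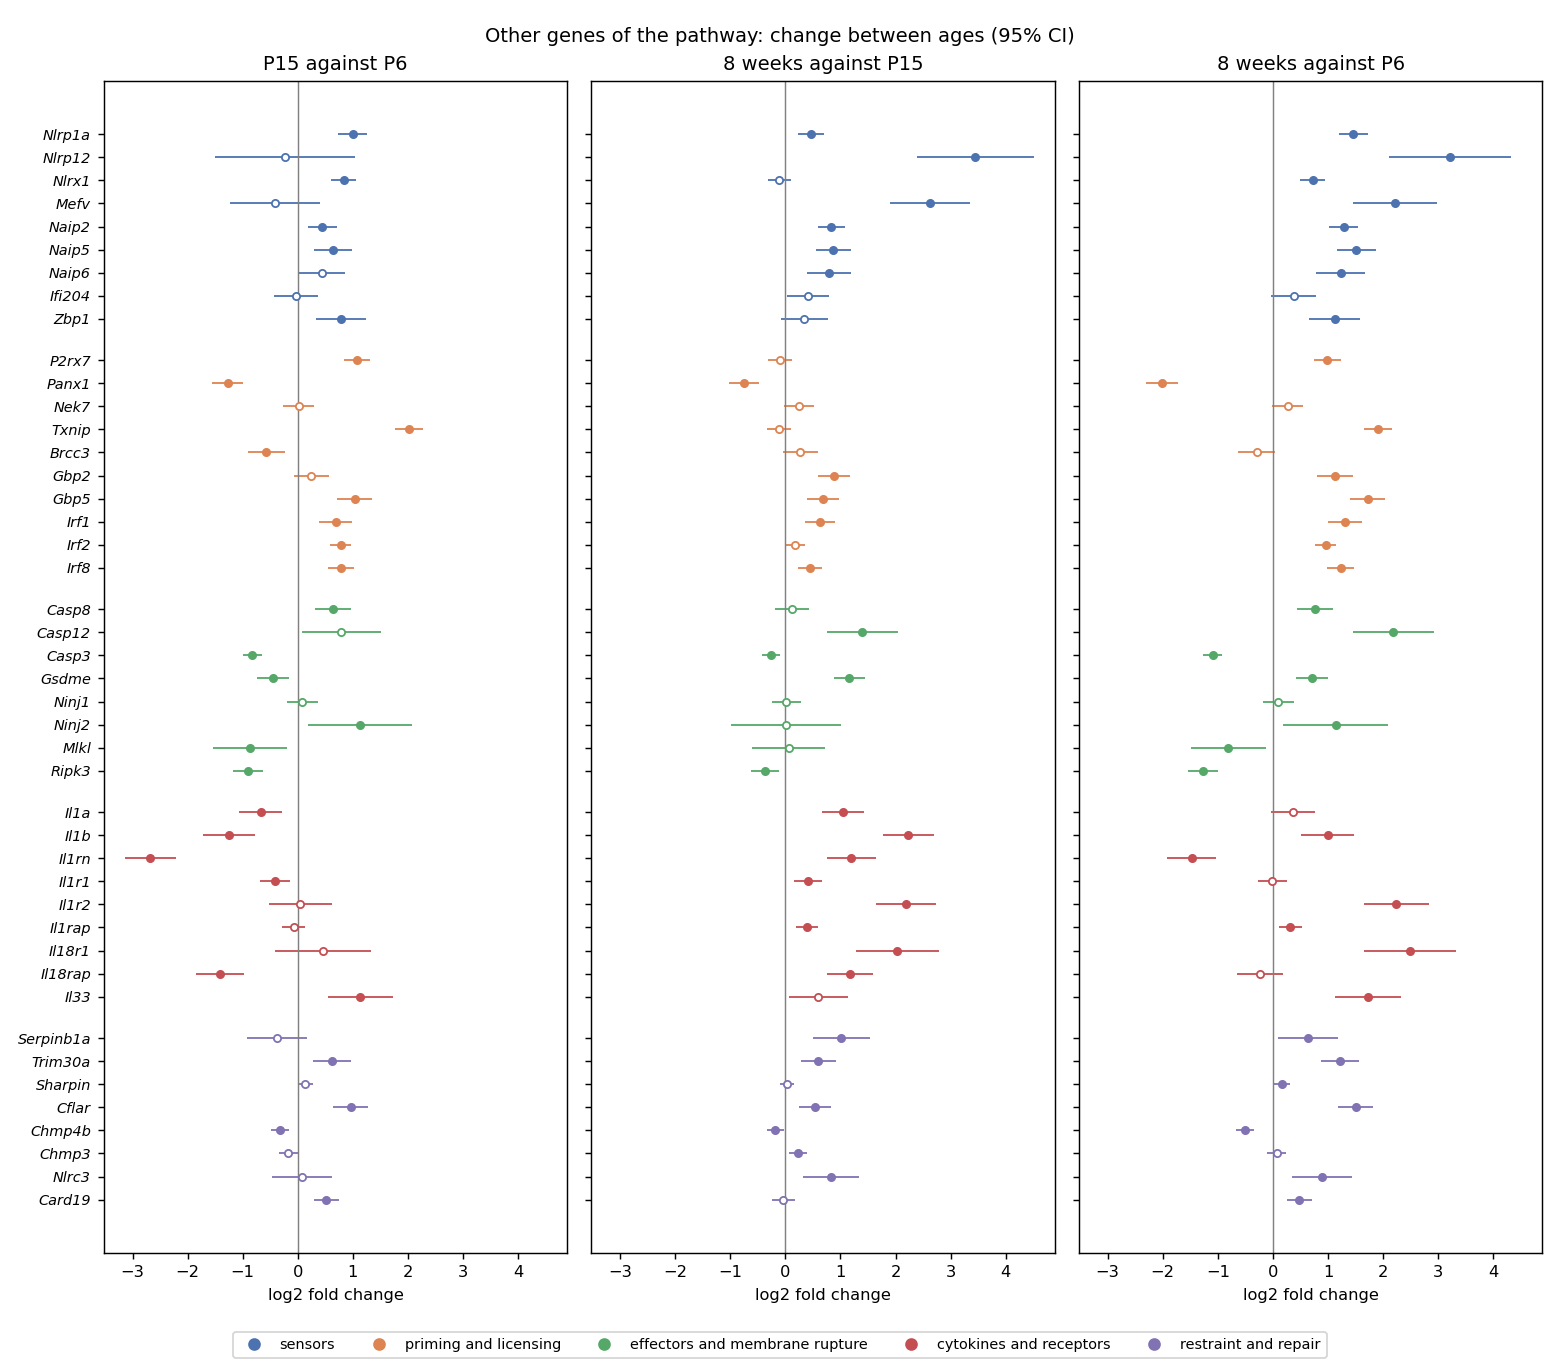
log2FC (horizontal axis) of the 44 other pathway genes tested, in 5 lists by role and colour, with 95% confidence intervals, filled where the FDR is below 0.05. Sensors lie to the right from P6 to 8 weeks, Panx1, Ripk3 and Il1rn to the left, and the cytokine list is mostly to the left from P6 to P15 and to the right from P15 to 8 weeks.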

How the data were processed

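Libraries were directional mRNA libraries of CD45+ve cells, 1 per mouse. Per the labels, reads were trimmed with fastp 0.20.0, aligned with STAR to mouse GRCm38 (mm10) and counted per gene with featureCounts (Subread). The authors deposited raw counts of 55401 genes, which are the only values used. The annotation release is not given in the sources used here, and names were taken from GENCODE M21, which matched 55141 genes. Lengths, GC content and promoters (RefSeq, GRCm38.p6) come from the reference.

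The filter kept 17612 genes that reached 0.5 CPM in 5 or more mice, libraries were scaled by TMM, and edgeR 4.0.16 (R 4.3.3) fitted the means of 6 groups of age and sex with robust quasi-likelihood dispersions over 34 mice. Age contrasts average the sexes, a gene was called at a Benjamini-Hochberg adjusted p below 0.05 over all genes, and glmTreat tested against 2-fold. P6 female 6 was left out by the rule that chose the columns and entered an alternative only. CPM are TMM-scaled counts relative to library size, and RPKM divide these by the length in kilobases of the main coding transcript. Ratios were compared by two-sided permutation tests over mice (numpy 2.4.6). Between 23316107 and 38965078 counts per mouse were available, so counting error was small for all members but the lowest. No pair of mice within a group held near-identical counts. The steps were tested on simulated data. The alternatives comprised other scalings (library size, DESeq2 size factors, pan-leukocyte genes), other tools (DESeq2 1.42.0, limma-voom 3.58.1), other filters, all 35 mice, an additive model, ages compared alone, a replicate block and leaving out each mouse, and, added after seeing the data, a GC offset and the loss of both outlying mice.

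The 10 members and all gene lists were chosen with earlier results of these data known. The other pathway genes named were the up to 2 largest changes past the 2-fold test from P6 to 8 weeks in each list and 8 fixed genes (Il1b, Il1a, Nek7, P2rx7, Txnip, Casp8, Gsdme and Ninj1). A further gene of the microglial list was left out of the sums and is not reported here.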

Additional observations from a re-analysis of the deposited data

Results flagged for a closer look

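Among 60 groups of age and sex for the 10 genes, 2 held a sample far from the others of its group by Dixon's criterion, which chance does in about 1 of 20 groups. Nlrp1b was 5.06 CPM in P6 female 3, against 4.25 to 4.32 CPM in the other P6 females. Il18 was 35 CPM in P15 female 2, against 25.2 to 28.4 CPM in the other P15 females. The next highest Il18 value at P15 was 30.4 CPM, in male 4. P15 male 1 was not marked by this criterion for any gene.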

How the results depend on the processing

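Of 390 values (30 log2FC values of the 10 genes under 13 alternatives), 358 kept direction and call, 12 lost the call, 10 gained one and 10 changed sign. With each of 34 mice left out, 996 of 1020 did. Scaling to the pan-leukocyte genes moved most: 2 members rose and 4 fell from P6 to P15 with 0 past 2-fold, 2 fell from P15 to 8 weeks with 0 past 2-fold, and 4 fell from P6 to 8 weeks. Under it the log2FC changed sign for Nlrc4 (-0.070), Pycard (-0.21) and Il18bp (-0.12) from P6 to P15. It also changed sign for Pycard (-0.082) from P15 to 8 weeks, and for Nlrp3 (-0.47) and Pycard (-0.29) from P6 to 8 weeks. The mean log2 CPM of the 8 scaling genes was 8.62 at P6, 8.99 at P15 and 9.19 at 8 weeks. Not each of the 8 was called higher, such as Tyrobp from P6 to P15 (0.21, FDR = 0.131). Scaling to a mean that is higher with age shifts all genes down.

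The 2 falls from P6 to P15 became 1 with all 35 mice, 1 without the filter on low counts and 0 with the ages compared alone, and between 0 and 2 with 1 mouse left out. The rise of Nlrp1b past 2-fold there was lost with limma-voom (0 genes). The rise of Casp4 past 2-fold from P15 to 8 weeks was lost (0 genes) with limma-voom, DESeq2, no filter, the filter at 1 CPM, the additive model and the GC offset, and between 0 and 1 genes passed with 1 mouse left out. From P15 to 8 weeks 2 genes fell with the GC offset and 2 without P15 male 1 and 8-week male 4 (1 to 2 with single mice left out). Signs also changed near 0, where no call was made: Pycard from P15 to 8 weeks with the GC offset (-0.028), Nlrp3 from P6 to 8 weeks with library size scaling (-0.030), Nlrc4 from P6 to 8 weeks with 35 mice (0.013), without both mice (0.043) and with single mice left out (-0.162 to 0.0435, above 0 without 8-week female 1, 8-week male 4 or P6 male 5), and, between the sexes with 35 mice, Nlrp3 at P15 (-0.0057) and Casp1 at 8 weeks (-0.0058). The cause was not tested.

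With the replicate number as a block, 4 members rose and 2 fell from P6 to P15, 6 rose and 1 fell from P15 to 8 weeks, and 7 rose and 0 fell from P6 to 8 weeks, as without it. The deviations of mice of the same number had a median correlation of 0.0325 over 80 pairs, 27 of them over 0.1. For mice of other numbers it was -0.0108 over 400 pairs. Whether the numbers pair the mice was not tested. Depth limits the lowest genes most, Nlrc4 and Il18bp among the members and, among the others, genes such as Nlrp12, Mefv, Ninj2, Mlkl, Casp12 and Il18r1.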
